A study of Mus musculus with 15 samples.

Results

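MLL-AF9 leukaemia labelled BMTGMP was compared with normal granulocyte-macrophage progenitors (wtGMP) by RNA sequencing of mouse bone marrow, across all measured genes. The comparison takes the BMTGMP libraries 1, 2 and 4 and the wtGMP libraries 1 to 4, which are 7 of the 15 libraries of the series. The labels do not spell out BMTGMP. It is read here as leukaemia that arose from granulocyte-macrophage progenitors (GMPs), beside the groups LTearly (4 libraries) and LTlate (3 libraries), whose names point to long-term haematopoietic stem cells. All libraries carry the strain label C57BL/6. The transgene is a human MLL-AF9 cDNA placed by Cre recombination in A2Lox-cre targeting cells that had been pretreated with doxycycline, and double heterozygous female mice from lines backcrossed to C57BL/6 were used for the animal experiments. The labels give no age, no doxycycline treatment of the animals and no transplant host for any library. Bone marrow was depleted of cells carrying Cd5, Cd11b, B220, Gr-1 or Ter119 and then sorted, with GMPs defined by c-Kit, Cd34 and high FcγRII/III in the absence of lineage antigens, Sca-1 and IL-7Rα. The labels do not say which gate each leukaemia library came from, nor that libraries of a group came from separate animals, so p-values measure only the spread between these libraries.

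GMPs are committed progenitors of the bone marrow that give rise to neutrophils and monocytes. Neutrophil maturation is ordered: the proteins of primary granules, such as myeloperoxidase, are made first in promyelocytes, and those of secondary granules, such as lactoferrin, follow in myelocytes and later stages. MLL-AF9 joins the chromatin-binding end of the methyltransferase MLL (Kmt2a) to AF9 (Mllt3), a partner of transcription elongation complexes, and is known for keeping the HOXA genes and the cofactor Meis1 switched on in acute myeloid leukaemia.

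Relative to wtGMP, the BMTGMP libraries had higher Hoxa, Meis1, Pbx3 and Eya1 RNA, higher RNA of secondary granules, of the phagocyte NADPH oxidase and of the β2 integrin Itgam/Itgb2, and lower Cd34, Ccnd2, Bcl2, Satb1, Erg and Mef2c. Cd34 and Itgam (Cd11b) encode antigens used in the sort, so at these genes sorting and leukaemia cannot be told apart. Marrow was depleted of cells with Cd11b or Gr-1, and the gate of each BMTGMP library is not given. At the other genes, such as those of secondary granules, the oxidase and Itgb2, sorting and leukaemia cannot be told apart either. The eosinophil genes Prg2 and Epx and the mast cell gene Cpa3 were clear in wtGMP and at or near 0 in BMTGMP. Total counts on named genes were 2469470 to 6978756 in wtGMP and 4556108 to 10712743 in BMTGMP. Levels below are CPM (read counts scaled to a common library total and for composition, but not by gene length, so they are compared within a gene only). Of 14542 genes tested with edgeR's quasi-likelihood test, 957 had a Benjamini-Hochberg adjusted p under 0.05 (6.58%). These are named called genes. They comprised 642 genes that rose (4.41%) and 315 that fell (2.17%), and the median log2 fold change of all tested genes was 0.07. The counts given below for gene lists are to be read beside these shares. The levels of the 2 groups did not overlap at 2790 genes (19.2%), with BMTGMP above wtGMP at 1581 (10.9%) and below it at 1209 (8.31%). The estimates come from a fit of 14 libraries that share 1 estimate of the spread. A fit of the 7 libraries alone called 1216 of 11269 genes (10.8%), with 695 higher (6.17%) and 521 lower (4.62%).

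**Figure D1:**
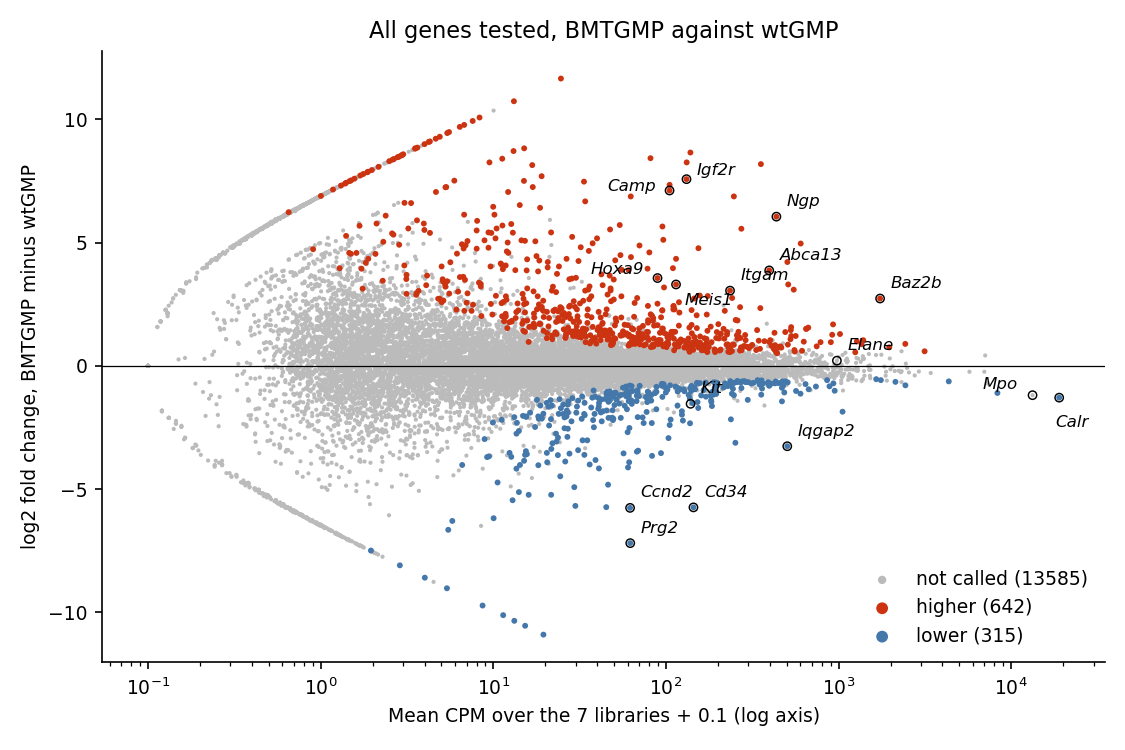
Mean level of each tested gene (CPM plus 0.1, log axis) against its log2 fold change between BMTGMP and wtGMP. The 642 called genes above 0 and the 315 below it are coloured, and the 13585 genes that were not called are grey.

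The libraries were first set against their labels. Mouse Kmt2a, the gene of the fusion's MLL end, was at 309, 343, 238 and 282 CPM in wtGMP 1 to 4 and at 305, 281 and 444 CPM in BMTGMP 1, 2 and 4. The ranges overlap and the change was 0.23 ± 0.20 (log2, SE; adjusted p = 0.614). Reads of the human transgene itself were not analysed here, so these values do not check the genotype. Mouse Mllt3, the AF9 gene, was at 30.7, 39.8, 29.6 and 28.8 CPM in wtGMP and at 9.95, 2.33 and 5.66 CPM in BMTGMP. It fell by 2.42 (adjusted p = 0.0188), a call lost without BMTGMP 2 (adjusted p = 0.1), without BMTGMP 4 (0.076) or without wtGMP 2 (0.058), while without BMTGMP 1 the change was -3.01. In the list of fusion parents and cofactors, Jmjd1c rose and Mllt3 fell among 25 tested members, and 2 members fell without BMTGMP 1.

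Of 11 tested genes listed for the sort gate 2 rose, 2 fell and 7 were not called. The falls were Cd34 and Ly6e, and Ly6e is not among the antigens of the sort given above. Its change of -1.38 (adjusted p = 0.0241) was not called without BMTGMP 2 or 4 or without wtGMP 2, 3 or 4, which left 1 that fell. Cd34, a sialomucin of progenitors that the GMP gate requires, was at 278, 255, 212 and 250 CPM in wtGMP and at 4.19, 3.37 and 6.7 CPM in BMTGMP. Every BMTGMP library lay far below every wtGMP library, a fall of 5.74 ± 0.58 (adjusted p = 2.24e-05). Kit, the stem cell factor receptor, was at 237, 195, 184 and 157 CPM against 50.1, 59.3 and 90.7 CPM. Its groups did not overlap either, but the change of -1.54 ± 0.48 missed the threshold (adjusted p = 0.0827), and passed it in the fit of the 7 libraries (0.000103) and with DESeq2 (0.00679). Fcgr3, an Fcγ receptor of the gate, overlapped between the groups at 225 to 302 CPM in wtGMP and 127 to 256 CPM in BMTGMP (adjusted p = 0.469). Itgam, which encodes the Cd11b antigen used for depletion, was at 58.2, 31.1, 76.2 and 61.4 CPM in wtGMP and at 413, 539 and 467 CPM in BMTGMP, and rose by 3.05 ± 0.26 (adjusted p = 1.66e-07). Ptprc encodes the pan-leukocyte phosphatase CD45, of which the depletion antigen B220 is a form. It rose by 1.08 ± 0.18 (adjusted p = 0.000174), from 320 to 394 CPM in wtGMP to 594 to 880 CPM in BMTGMP. GMPs were defined by Cd34 and c-Kit without lineage antigens such as Cd11b, and the gate of each BMTGMP library is not given. At Cd34, Kit, Itgam and Ptprc, an effect of the sort and one of the leukaemia therefore cannot be told apart. The same limit covers the other genes of this comparison, since a gate selects whole cells. In sorted but mixed RNA, fewer cells of a type and less RNA per cell cannot be told apart either.

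Known targets of MLL fusions changed in both directions: of 30 tested members 11 rose and 4 fell, with a median log2 change of 1.49. Hoxa9, a homeobox factor that sustains immature myeloid growth, was at 9.89, 19.7, 19.5 and 15.2 CPM in wtGMP and at 186, 127 and 249 CPM in BMTGMP. The lowest BMTGMP library stood well above the highest wtGMP library, and the change was 3.56 ± 0.31 (adjusted p = 8.79e-09). Its neighbour Hoxa7 was at 30.3, 27.6, 32.3 and 19.0 CPM against 190, 123 and 128 CPM, a change of 2.43 ± 0.26 (adjusted p = 2.46e-07). Hoxa10 was at 0.143, 2.36, 0 and 0 CPM in wtGMP and at 32.7, 19.1 and 24.1 CPM in BMTGMP, a change of 5.69 ± 0.81 (adjusted p = 2.43e-05). All 3 Hoxa genes were thus higher in each BMTGMP library than in any wtGMP library. Hoxa genes lie close together with antisense transcripts, and the sources used here do not say that counting used strand, so reads may be shared among them.

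Meis1 and Pbx3, TALE homeobox cofactors that bind DNA with HOX proteins, rose as well. Meis1 was at 24.1, 36.6, 21.5 and 13.3 CPM in wtGMP and at 217, 197 and 290 CPM in BMTGMP, a change of 3.30 ± 0.45 (adjusted p = 0.0003). Pbx3 was at 3.15, 8.27, 7.4 and 1.9 CPM against 39.2, 35.5 and 104 CPM, a change of 3.54 ± 0.43 (adjusted p = 8.78e-06) that was 2.92 without BMTGMP 4. Jmjd1c, a putative histone demethylase, rose by 1.57 ± 0.17 (adjusted p = 4.88e-07), from 258 to 328 CPM in wtGMP to 669, 929 and 971 CPM in BMTGMP 2, 1 and 4. Without wtGMP 2, the only wtGMP library with more than a trace of Hoxa10, the Hoxa10 change was 8.24.

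Eya1, a developmental phosphatase and transcriptional coactivator, and Six4, a homeobox factor of the family it binds, were low in wtGMP and clear in BMTGMP. Eya1 was at 4.3, 0.394, 6.95 and 10.8 CPM in wtGMP and at 68.9, 74.9 and 188 CPM in BMTGMP, a change of 4.28 ± 0.57 (adjusted p = 0.000308). Six4 was at 2.72, 5.51, 0 and 2.85 CPM against 34.9, 35.3 and 45.3 CPM. Its change of 3.83 (adjusted p = 0.0254) was no longer called without BMTGMP 4 (0.059), without wtGMP 1 (0.083) or without wtGMP 4 (0.093).

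The members of the list that fell include genes of lymphoid and progenitor programmes. Mef2c, a MADS-box factor of early lymphoid and myeloid progenitors, was at 312, 307, 364 and 446 CPM in wtGMP and at 121, 39.8 and 76.5 CPM in BMTGMP, and fell by 2.17 ± 0.35 (adjusted p = 0.00109). Bcl2, an inhibitor of apoptosis, was at 148, 169, 132 and 211 CPM against 36.8, 14.7 and 12.4 CPM, and fell by 2.93 ± 0.38 (adjusted p = 2.13e-05). Satb1, a chromatin organiser of lymphoid-biased progenitors, was at 52.6, 36.2, 50.2 and 42.1 CPM against 2.14, 6.61 and 2.72 CPM, and fell by 3.56 ± 0.53 (adjusted p = 4.61e-05). Each of these 3 genes was lower in every BMTGMP library than in any wtGMP library, and without 1 library the change was -3.58 at Bcl2 (BMTGMP 1) and -4.24 at Satb1 (BMTGMP 2). Bcl2 was the single called gene among 16 tested members of the BCL2 family, where 2 others rose without BMTGMP 4 or wtGMP 3 and 1 without wtGMP 1.

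**Figure D2:**
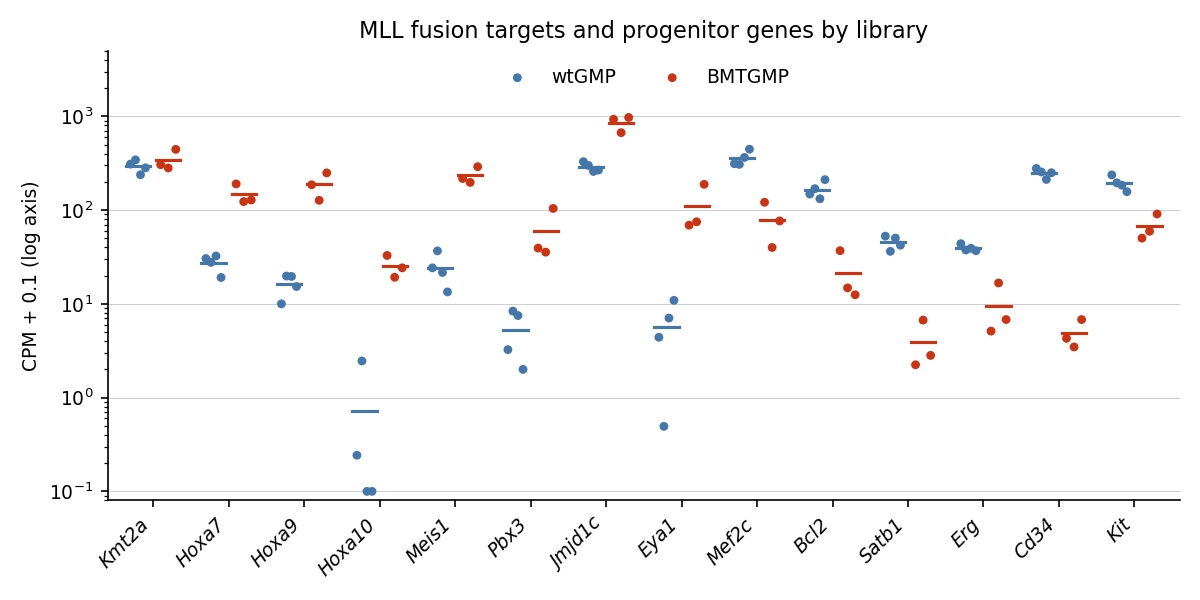
Level of fusion targets and progenitor genes in each library (CPM plus 0.1, log axis), with dots for libraries and bars for the group mean. Hoxa7, Hoxa9, Hoxa10, Meis1, Pbx3 and Eya1 lie higher in all 3 BMTGMP libraries, Mef2c, Bcl2, Satb1, Erg, Cd34 and Kit lie lower, and Kmt2a overlaps.

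Stem cell genes gave no single direction, with 2 of 18 tested members higher and 2 lower, and 1 higher without any 1 of BMTGMP 1, 2 and 4 and wtGMP 2 and 4. Erg, an ETS factor needed for stem cell maintenance, was at 43.7, 37.4, 39.0 and 36.7 CPM in wtGMP and at 5.02, 16.6 and 6.7 CPM in BMTGMP. It fell by 2.05 ± 0.35 (adjusted p = 0.000224), and by 2.77 without BMTGMP 2, the highest of the 3. Mecom, the Evi1 locus, was close to 0 in both groups with at most 3.8 CPM in wtGMP (adjusted p = 0.93). Its fitted change of -0.65 turned to 5.05 without wtGMP 4, the library with that level. Ly6a, the Sca-1 gene, was also near 0 in wtGMP, with at most 0.633 CPM (adjusted p = 0.44).

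Genes of secondary granules and late neutrophils rose: of 31 tested members 21 were called higher and 0 lower, with a median log2 change of 4.21. With members that had no count in 1 group set to the bound that 3 counts allow, the median was 3.88. The upstream sequences of 4 such genes that rose (Ltf, Ngp, Camp and Olfm4) are shown next. Those of a pair of primary granule genes not called in the fit of 14 libraries (Mpo and Elane) follow, since the sets moved apart. Each is the 250 bases before the annotated start, 5′ to 3′ on the gene's strand, from RefSeq on GRCm38.p6: chr9:111019042-111019291, plus strand, for Ltf; chr9:110419558-110419807, plus strand, for Ngp; chr9:109849457-109849706, minus strand, for Camp; chr14:80000052-80000301, plus strand, for Olfm4; chr11:87793534-87793783, plus strand, for Mpo; and chr10:79886062-79886311, plus strand, for Elane. Capitals mark matches on either strand to a C/EBP-like motif, TTGCNNAA, or to a PU.1-like motif, GAGGAAGT. The Camp sequence holds neither.
Ltf: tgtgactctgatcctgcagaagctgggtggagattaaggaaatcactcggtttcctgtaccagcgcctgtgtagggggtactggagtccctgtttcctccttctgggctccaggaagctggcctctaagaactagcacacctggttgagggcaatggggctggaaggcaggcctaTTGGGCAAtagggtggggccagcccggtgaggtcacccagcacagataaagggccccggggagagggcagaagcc
Ngp: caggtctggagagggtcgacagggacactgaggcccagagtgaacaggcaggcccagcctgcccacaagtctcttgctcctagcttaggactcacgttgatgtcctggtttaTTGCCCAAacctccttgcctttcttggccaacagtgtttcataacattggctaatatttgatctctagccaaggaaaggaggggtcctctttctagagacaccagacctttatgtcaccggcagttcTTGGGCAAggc
Camp: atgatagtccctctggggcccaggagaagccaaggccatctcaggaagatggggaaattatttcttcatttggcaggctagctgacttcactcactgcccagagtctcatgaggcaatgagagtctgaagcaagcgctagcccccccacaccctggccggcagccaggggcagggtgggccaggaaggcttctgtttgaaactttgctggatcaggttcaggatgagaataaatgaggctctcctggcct
Olfm4: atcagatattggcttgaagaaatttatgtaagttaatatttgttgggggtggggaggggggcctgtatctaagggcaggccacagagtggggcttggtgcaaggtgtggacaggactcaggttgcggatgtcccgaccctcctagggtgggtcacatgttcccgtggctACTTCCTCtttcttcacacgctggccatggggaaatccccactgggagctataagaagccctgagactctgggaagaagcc
Mpo: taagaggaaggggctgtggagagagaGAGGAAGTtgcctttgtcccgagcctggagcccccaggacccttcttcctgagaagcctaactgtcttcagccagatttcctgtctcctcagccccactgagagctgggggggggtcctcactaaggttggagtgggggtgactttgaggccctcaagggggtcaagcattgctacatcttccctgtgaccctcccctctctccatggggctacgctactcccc
Elane: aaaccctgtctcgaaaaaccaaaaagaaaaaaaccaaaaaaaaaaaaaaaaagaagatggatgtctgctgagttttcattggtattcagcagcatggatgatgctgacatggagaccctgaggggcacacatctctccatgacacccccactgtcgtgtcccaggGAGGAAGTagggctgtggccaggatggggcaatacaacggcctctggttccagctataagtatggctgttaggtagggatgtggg

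The C/EBP-like motif occurred at 75 bases before the Ltf start and at 138 and 11 bases before the Ngp start. The PU.1-like motif occurred at 81 bases before the Olfm4 start, 224 before Mpo and 85 before Elane. Of the late neutrophil genes that rose, 19 had an upstream sequence, and 4 of them held the C/EBP-like motif (Lcn2, S100a9, Ngp and Ltf, 21.1%). It was in 2 of 15 members of the primary granule list (Clec11a and Lyz1, 13.3%) and in 2582 of 27025 upstream sequences in all (9.55%). The PU.1-like motif was in 3 of the 19 (15.8%), in 4 of the 15 listed members (Ctsc, Prtn3, Elane and Mpo, 26.7%) and in 660 of all (2.44%). The motifs do not overlap each other in the sequences shown. A match describes letters and is no evidence of binding.

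Ltf encodes lactoferrin, the iron-binding protein of secondary granules. It was at 6.02, 18.1, 10.1 and 20.6 CPM in wtGMP and at 217, 1130 and 517 CPM in BMTGMP, a change of 5.56 ± 0.65 (adjusted p = 0.000346). Ngp, a neutrophilic granule protein, was at 6.6, 18.1, 21.5 and 15.2 CPM against 361, 1750 and 885 CPM, a change of 6.05 ± 0.61 (adjusted p = 0.000126). Camp, the cathelicidin precursor, was at 0.86, 3.94, 1.12 and 2.22 CPM against 73.3, 492 and 162 CPM, a change of 7.11 ± 0.77 (adjusted p = 0.000203). BMTGMP 2 had the highest level of all 3 genes and BMTGMP 1 the lowest, and each BMTGMP library was above each wtGMP library.

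The same order of libraries held at other members. Cd177, a surface glycoprotein of neutrophils, was at 5.16, 2.36, 2.91 and 6.33 CPM in wtGMP and at 122, 386 and 141 CPM in BMTGMP, a change of 5.65 ± 0.50 (adjusted p = 1.67e-05). S100a9, the larger subunit of calprotectin, was at 20.6, 31.9, 47.5 and 75.0 CPM against 548, 2650 and 869 CPM, a change of 4.96 ± 0.64 (adjusted p = 0.000758). Olfm4, a secondary granule protein of a neutrophil subset, was at 0.574, 4.73, 2.24 and 3.17 CPM against 86.8, 136 and 98.3 CPM, a change of 5.53 ± 0.50 (adjusted p = 1.31e-05). S100a8, the partner subunit of S100a9, rose by 3.88 (adjusted p = 0.0115; 0.051 in the fit of the 7 libraries), with 36.2, 272 and 82.5 CPM in BMTGMP. Ceacam10, an adhesion protein, had no count in wtGMP and 2.33, 16.6 and 8.38 CPM in BMTGMP, at least 47.4-fold higher. Leaving out BMTGMP 2 lowered the changes to 4.78 at Ltf, 5.35 at Ngp, 6.04 at Camp, 4.92 at Cd177, 4.01 at S100a9 and 2.73 at S100a8, and left 17 of the members called. The members' summed level was 783 to 996 CPM in wtGMP and 2960 to 11700 CPM in BMTGMP.

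The phagocyte NADPH oxidase, which makes superoxide, rose as a group with 6 of 8 tested subunits and regulators higher and 0 lower (median log2 change 0.87). Cyba, the p22phox membrane subunit, was at 34.8, 35.8, 41.7 and 36.4 CPM in wtGMP and at 108, 179 and 115 CPM in BMTGMP, a change of 1.85 ± 0.23 (adjusted p = 2.51e-06). Rac2, the GTPase that activates the complex, was at 94.3, 139, 89.0 and 84.9 CPM against 232, 260 and 202 CPM, a change of 1.19 ± 0.19. Ncf4, a cytosolic subunit, was at 25.1, 40.2, 41.0 and 35.5 CPM against 78.3, 87.9 and 87.2 CPM, and rose by 1.26 ± 0.23. None of these 3 overlapped between the groups. Cybb, the catalytic gp91phox subunit, rose by 0.85 ± 0.20 (adjusted p = 0.00631), from 146 to 209 CPM in wtGMP to 277, 469 and 251 CPM in BMTGMP, and was not called without BMTGMP 2 (0.51, adjusted p = 0.16). The cytosolic subunit Ncf1 was lost in the same way (0.38, adjusted p = 0.34), and also without wtGMP 1 (0.1), 2 (0.079) or 4 (0.099), so the count was 4 without BMTGMP 2.

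The list of primary granule genes behaved unlike the late genes, with 4 of 18 tested members higher and 3 lower and a median log2 change of -0.23. In the fit of the 7 libraries 4 of 18 were higher and 6 lower. The list also holds genes such as the chaperone Calr, and Mpo, Elane, Ctsg and Prtn3 were not among its called members in the fit of 14 libraries. Mpo, myeloperoxidase, was at 19200, 17900, 16000 and 16800 CPM in wtGMP and at 5730, 9020 and 8310 CPM in BMTGMP. Its groups did not overlap, but the change of -1.19 ± 0.61 was not called in the fit of 14 libraries (adjusted p = 0.321) and was called in that of the 7 (3.96e-05). Elane, neutrophil elastase, was at 1050, 856, 917 and 848 CPM against 932, 1370 and 881 CPM, with overlapping groups (adjusted p = 0.886). Ctsg, cathepsin G, was at 1340, 1190, 1300 and 1140 CPM against 884, 611 and 794 CPM (adjusted p = 0.313; 0.00344 in the fit of the 7 libraries), and Prtn3, proteinase 3, overlapped between the groups (adjusted p = 0.465).

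Among the members that passed, Calr, the endoplasmic reticulum chaperone calreticulin, was at 19000, 25600, 27900 and 29100 CPM in wtGMP and at 12100, 10900 and 8180 CPM in BMTGMP, and fell by 1.29 ± 0.18 (adjusted p = 1.77e-05). Lyz2, lysozyme, was at 443, 360, 564 and 548 CPM against 1960, 1530 and 1110 CPM, a rise of 1.68 ± 0.21, with reads possibly shared with its copy Lyz1. Hp, haptoglobin, rose by 1.38 ± 0.19, from 120 to 175 CPM to 333 to 481 CPM. The members' summed level was 44100 to 51100 CPM in wtGMP and 22300 to 27500 CPM in BMTGMP, with Mpo and Calr contributing most of it. Because Calr is a chaperone, this sum and the list's counts do not describe primary granule proteins alone.

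**Figure D3:**
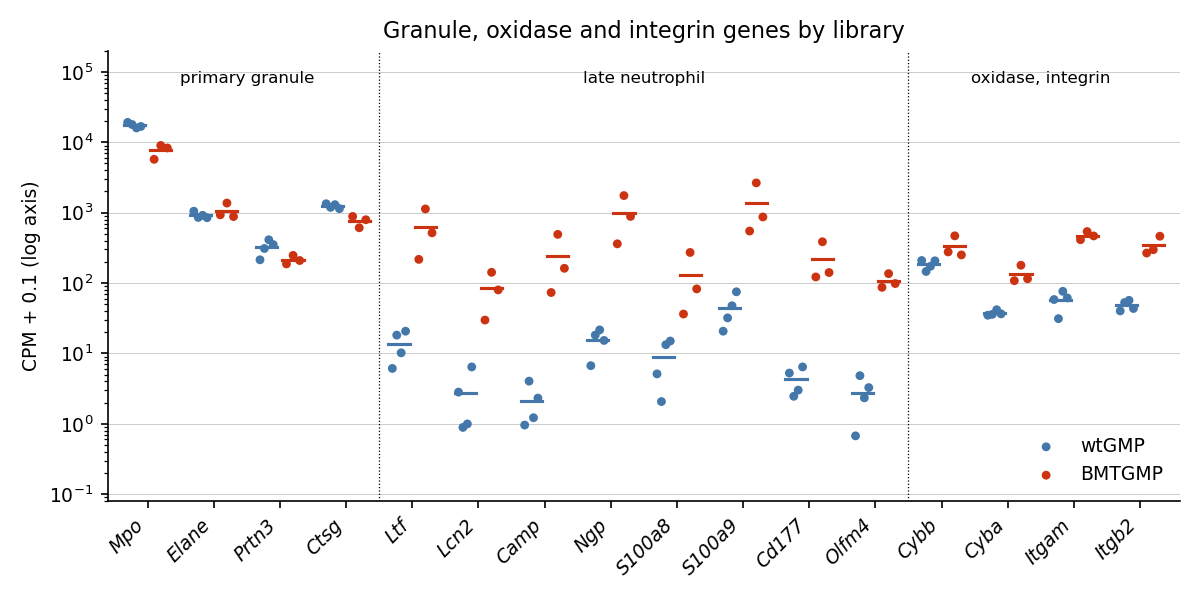
Level of primary granule genes, of late neutrophil genes and of oxidase and β2 integrin genes in each library (CPM plus 0.1, log axis), with dots for libraries and bars for the group mean. The late neutrophil genes lie higher in each BMTGMP library than in any wtGMP library, Mpo and Ctsg lie lower, and Elane and Prtn3 overlap.

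Of 24 tested transcription factors of myeloid fate, 5 rose and 1 fell. Without wtGMP 4, 3 rose, and the number that fell was 3 without BMTGMP 1 and 0 without BMTGMP 2. Gfi1, a repressor needed for the neutrophil lineage, was at 69.8, 53.9, 63.2 and 69.3 CPM in wtGMP and at 177, 346 and 273 CPM in BMTGMP, a change of 2.05 ± 0.32 (adjusted p = 0.000334). Cebpe, the factor of secondary granule genes, was at 28.1, 38.2, 19.5 and 29.4 CPM against 41.5, 222 and 77.3 CPM, a change of 1.99 ± 0.45 (adjusted p = 0.0149) that was 1.03 without BMTGMP 2, again the highest library, and not called without wtGMP 3 (0.057). Irf8, the factor of monocytes and dendritic cells, was at 235, 187, 242 and 176 CPM against 72.0, 25.5 and 27.4 CPM, and fell by 2.33 ± 0.50 (adjusted p = 0.012; 0.000464 in the fit of the 7 libraries). The groups did not overlap at any of these 3 genes. The Irf8 call was lost without BMTGMP 2 (0.073) or BMTGMP 4 (0.11), and its change was -2.98 without BMTGMP 1. Spi1, which encodes PU.1, and Cebpa, factors that open the myeloid programme, were not called (adjusted p = 0.251 and 0.304).

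Monocyte and macrophage genes gave 7 of 39 tested members higher and 1 lower, with a median log2 change of 0.49 (0.07 with members at 0 in 1 group set to their bound). The number lower was 6 without BMTGMP 1, where 6 were higher, and 0 without BMTGMP 2 or BMTGMP 4. Adgre1, the F4/80 antigen, was at 11.5, 13, 21.7 and 6.33 CPM in wtGMP and at 77.8, 57.1 and 58.9 CPM in BMTGMP, a rise of 2.29 ± 0.29. Sirpa, an inhibitory receptor of phagocytes, rose by 0.94, from 106 to 130 CPM to 200 to 231 CPM. Csf1r, the receptor for macrophage colony-stimulating factor, was at 168 to 194 CPM in wtGMP and at 161, 39.0 and 43.4 CPM in BMTGMP, and F13a1, coagulation factor XIII of monocytes, at 1260 to 1500 CPM against 1150, 256 and 624 CPM. Neither was called (adjusted p = 0.228 and 0.303), and in both BMTGMP 1 stood well above the other 2 leukaemia libraries. Both were picked after their values were seen. Irf8 was also higher in that library, while Ltf, Ngp and Camp were lowest there.

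Of 20 tested receptors for myeloid cytokines 1 was higher and 1 lower, or 3 lower without BMTGMP 1. Over all genes 4.41% were higher and 2.17% lower, so the list stood near these shares. Csf2ra, the ligand-binding chain for GM-CSF, was at 141, 148, 127 and 123 CPM in wtGMP and at 328, 383 and 334 CPM in BMTGMP, a rise of 1.37 ± 0.16 (adjusted p = 2.08e-06). Il6st, the shared signal chain gp130 of the IL-6 family, was at 148, 139, 194 and 164 CPM against 35.7, 34.5 and 21.2 CPM, and fell by 2.40 ± 0.25 (adjusted p = 1.47e-07). Both separated the groups without overlap.

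Adhesion genes changed in both directions, with 8 of 39 tested integrins, selectin ligand genes and homing receptors higher and 3 lower. Itgb2, the β2 integrin chain that pairs with Itgam, was at 40.1, 52.8, 56.7 and 43.4 CPM in wtGMP and at 267, 298 and 463 CPM in BMTGMP, a rise of 2.83 ± 0.20 (adjusted p = 1.63e-10). Ceacam1, a homophilic adhesion receptor, was at 45.3, 40.6, 45.7 and 60.8 CPM against 165, 256 and 225 CPM, a rise of 2.16 ± 0.19 (adjusted p = 9.83e-09). Ncam1 (CD56), a neural adhesion molecule also found on some myeloid leukaemias, was at 148, 110, 116 and 140 CPM against 633, 582 and 735 CPM, a rise of 2.34 ± 0.29 (adjusted p = 5.88e-05). In all 3 the lowest leukaemia library exceeded the highest normal one. Cd93, a C-type lectin-like receptor of progenitors, was at 512, 391, 295 and 431 CPM against 57.5, 34.4 and 48.4 CPM, and fell by 3.12 ± 0.27 (adjusted p = 2.16e-08). Alcam, an adhesion molecule outside that list, was at 57.5, 77.2, 64.1 and 60.5 CPM against 1.77, 7.13 and 5.03 CPM, and fell by 3.82 ± 0.44.

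Genes of epithelial-mesenchymal transition (EMT), which the series' title names for stem cell leukaemia, gave 2 of 28 tested members higher and 2 lower, or 1 lower without BMTGMP 2, BMTGMP 4 or wtGMP 4. Zeb1, a repressor of epithelial genes, was at 28.8, 56.3, 24.7 and 35.1 CPM in wtGMP and at 4.46, 5.19 and 6.5 CPM in BMTGMP, and fell by 2.75 ± 0.46 (adjusted p = 0.000184). It missed the threshold where a library with conflicting labels was added as LTlate (0.13). Low Zeb1 was not particular to BMTGMP: it was at 8.89, 4.88 and 3.24 CPM in LTlate 2 to 4, and at 80.5, 48.2, 34.9 and 28.5 CPM in LTearly 1 to 4. Col5a1, a fibrillar collagen, had 3 counts over the wtGMP libraries and 184 over the BMTGMP libraries, a ratio of pooled CPM of 45.2 with an exact 95% interval of 15.2 to 221 that covers counting error only. Of 15 tested epithelial junction genes 3 rose and 1 fell (Krt18), a call lost without any 1 library other than BMTGMP 2. Jup, plakoglobin, was at 3.01, 3.54, 7.4 and 3.48 CPM against 11.9, 32.2 and 42.7 CPM, a rise of 2.72 ± 0.52, and Cldn1, claudin-1, had no count in wtGMP and was at least 32.2-fold higher. Of 23 tested matrix proteases and inhibitors 3 rose and 0 fell, or 1 fell without BMTGMP 1. Timp2, a metalloproteinase inhibitor, rose by 5.41 ± 0.58 (adjusted p = 3.26e-07), from at most 0.896 CPM to 16.1, 28.5 and 18.4 CPM. Mmp9, the gelatinase of neutrophil granules, was at 0.143, 0.394, 1.12 and 0.317 CPM against 14.3, 29.0 and 27.2 CPM, a rise of 5.57 ± 0.86 (adjusted p = 0.00145) that was 6.50 without wtGMP 3.

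The cell cycle differed at its G1 entry genes, where 4 of 20 tested members rose and 1 fell, or 2 fell without BMTGMP 1. Ccnd2, cyclin D2, was at 119, 96.1, 111 and 104 CPM in wtGMP and at 3.07, 2.33 and 0 CPM in BMTGMP, and fell by 5.76 ± 0.77 (adjusted p = 0.000199). Ccnd3, cyclin D3, was at 47.9, 53.6, 76.4 and 45 CPM against 123, 192 and 107 CPM, a rise of 1.34 ± 0.23. The D cyclins thus moved in opposite directions without overlap of the groups. Rb1, the retinoblastoma repressor, and its partner E2f2 rose by 1.45 and 1.51. Of 48 tested genes of DNA replication and mitosis 1 rose and 0 fell (median log2 change -0.14), and the 1 call (E2f8) was lost without BMTGMP 2, wtGMP 2 or wtGMP 3. Mki67, the proliferation antigen, was at 5840 to 6340 CPM in wtGMP and 7670 to 8590 CPM in BMTGMP and was not called (0.42 ± 0.15, adjusted p = 0.0898; 0.0346 in the fit of the 7 libraries).

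Genes of ribosome biogenesis were lower at 6 of 43 tested members and higher at 0, with a median log2 change of -0.49. The count was 12 in the fit of the 7 libraries, 0 without BMTGMP 4 and 1 without wtGMP 3, and the summed level was 18700 to 25900 CPM in wtGMP and 11900 to 16900 CPM in BMTGMP. Hspd1, the mitochondrial chaperonin, was at 578, 476, 769 and 521 CPM against 359, 308 and 278 CPM, and fell by 0.89 (adjusted p = 0.00663; 0.055 without BMTGMP 4). Npm1, nucleophosmin, was at 2510, 2270, 2780 and 2570 CPM against 1740, 1910 and 1190 CPM, with groups apart but a call (adjusted p = 0.0249) that was lost without BMTGMP 4 (0.25), wtGMP 1 (0.053), wtGMP 3 (0.083) or wtGMP 4 (0.063). Respiratory chain and ATP synthase genes were lower at 3 of 42 tested members and higher at 0 (median -0.51), with 5 lower without BMTGMP 1 and 1 lower without any 1 of BMTGMP 2, BMTGMP 4, wtGMP 3 and wtGMP 4. Their summed level was 4160 to 4840 CPM in wtGMP and 2620 to 3400 CPM in BMTGMP. Atp5a1, the α subunit of ATP synthase, was at 936, 747, 1050 and 913 CPM against 550, 550 and 431 CPM, and fell by 0.84 ± 0.17 (adjusted p = 0.00124).

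Single metabolic genes differed more than their pathways. Slc16a3 (MCT4), a lactate exporter, was at 3.87, 1.97, 2.02 and 2.85 CPM in wtGMP and at 40.4, 50.7 and 42.1 CPM in BMTGMP, a rise of 3.99 ± 0.37 (adjusted p = 2.35e-08). Slc16a1 (MCT1), its relative, was at 70.7, 74.4, 105 and 90.2 CPM against 22.3, 27.0 and 26.2 CPM, and fell by 1.76 ± 0.36. These transporters moved in opposite directions among 28 tested glycolysis and lactate genes, of which 2 rose and 1 fell, with 1 rising without BMTGMP 2 or without wtGMP 1, 2 or 3. Idh2, the mitochondrial isocitrate dehydrogenase, fell by 1.40, from at least 199 CPM in wtGMP to 80.5 to 109 CPM in BMTGMP, and Dnmt3b, a de novo DNA methyltransferase, fell by 1.84, from 43.3 to 84.3 CPM to 13 to 20.1 CPM. Abcb1b, a P-glycoprotein drug efflux pump, was at 63.7, 94.5, 54.5 and 61.8 CPM against 3.91, 3.76 and 3.77 CPM, and fell by 4.16 ± 0.36 (adjusted p = 8.89e-09). Of 35 tested antioxidant and drug transport genes 4 rose and 3 fell, among them Prdx5, a peroxiredoxin, at 118 to 141 CPM against 234, 456 and 253 CPM.

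Among 19 tested genes of antigen presentation 3 rose and 3 fell. The number that rose was 1 without any 1 of the wtGMP libraries, where H2-Aa and H2-Eb1 lost their calls, and the number that fell was 5 without BMTGMP 1 and 1 without BMTGMP 2, BMTGMP 4 or wtGMP 2. Cd74, the class II invariant chain, had 2 counts in wtGMP and 165 in BMTGMP, a ratio of 60.8 with an interval of 16.6 to 507, and reached 4.56, 7.65 and 11.9 CPM in the leukaemia libraries. H2-K1, a class I heavy chain with near-identical relatives, fell by 1.14, from 227 to 282 CPM to 73.5 to 170 CPM. Interferon response genes (1 of 34 higher, 0 lower), p53 targets (2 of 24 higher, 0 lower), innate sensors (2 of 25 higher, 1 lower), complement and Fc receptors (2 of 15 higher, 0 lower) and cholesterol genes (2 of 26 higher, 0 lower) gave at most 2 calls in a direction. Leaving out any 1 of the 7 libraries moved at least 1 of these counts by 1 or 2. Over all genes, 4.41% were called higher and 2.17% lower.

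Markers of eosinophils, basophils and mast cells fell at 4 of 15 tested members and rose at 0, with a median log2 change of -1.99. The number that fell was 2 without BMTGMP 2 or BMTGMP 4 and 3 without any other library, and the call of Prss34, a basophil protease, was lost in all 7 of these fits. Their summed level was 283 to 356 CPM in wtGMP and 58.2 to 88.6 CPM in BMTGMP, where 7 members had no count. Hdc, the histamine-forming enzyme of mast cells and basophils, was at 78.7, 74.0, 52.9 and 76.0 CPM in wtGMP and at 58.9, 19.8 and 48.4 CPM in BMTGMP, overlapped between the groups and was not called (-0.73, adjusted p = 0.39). Prg2, the eosinophil major basic protein, was at 74.6, 80.7, 180 and 97.5 CPM in wtGMP and at 0.186, 1.17 and 1.05 CPM in BMTGMP, and fell by 7.19 ± 0.96 (adjusted p = 0.000707), or by 6.56 without BMTGMP 1. Epx, eosinophil peroxidase, was at 31.8, 25.6, 48.4 and 30.1 CPM and had no count in BMTGMP, at least 270-fold lower. Its adjusted p of 0.0188 became 0.075, 0.078 and 0.09 without BMTGMP 1, 2 and 4. Cpa3, the mast cell carboxypeptidase, was at 19.6, 14.2, 12.8 and 13.3 CPM and without a count in BMTGMP, at least 123-fold lower.

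Other lineages were thinly represented in both groups. Erythroid markers gave 0 calls in either direction among 8 tested, with summed levels of 110 to 179 CPM in wtGMP and 93.4 to 145 CPM in BMTGMP. Megakaryocyte markers gave 0 of 5 (10.3 to 31.9 CPM against 10.5 to 38.6 CPM), B cell markers 0 of 9 (9.82 to 31.5 against 27.3 to 34.6 CPM) and T and NK cell markers 0 of 10 (11.4 to 33.2 against 37.1 to 43.0 CPM). The defining markers Cd79a and Cd3e had no count in wtGMP and at most 1.12 and 2.46 CPM in BMTGMP, and were picked after their values were seen. Dendritic cell markers fell at 2 of 12 (Irf8 and Tcf4), with summed levels of 291 to 317 CPM in wtGMP and 63.5 to 150 CPM in BMTGMP, and at 0 without BMTGMP 2 or BMTGMP 4 and 1 without wtGMP 4. Stromal and endothelial markers rose at 2 of 16 (Cxcl12 and Vcam1), and at 0 or 1 when any 1 of the 7 libraries was left out, with summed levels of 150 to 186 CPM against 173 to 220 CPM. The part of these markers in the changes described above was not tested.

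**Figure D4:**
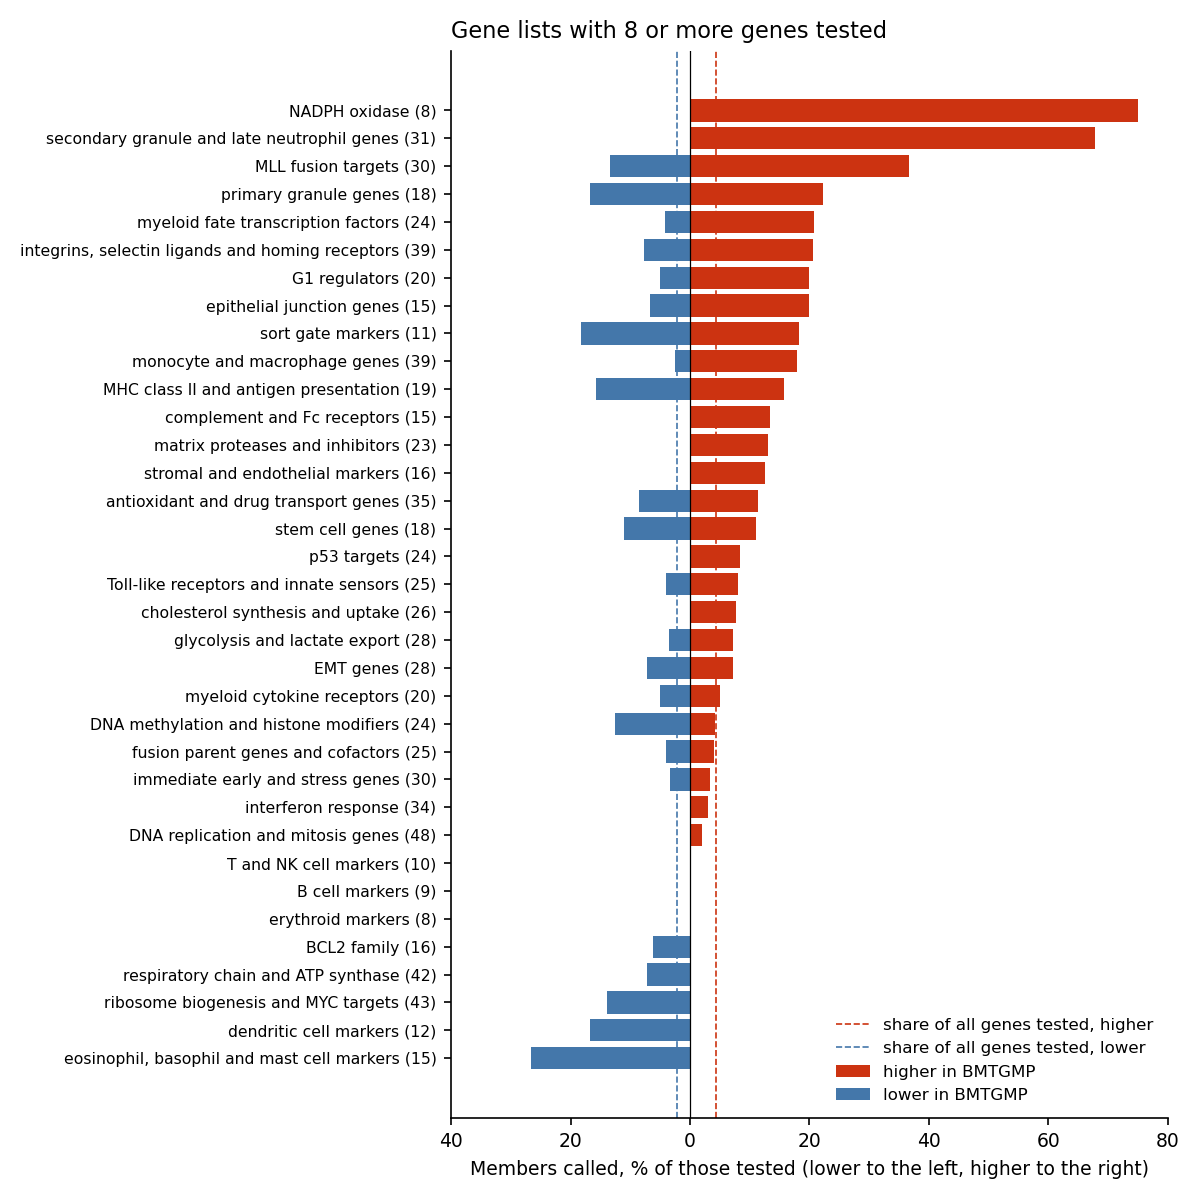
Share of tested members called higher and called lower in BMTGMP for each gene list with at least 8 tested members, in percent, with dashed lines at the shares over all genes (4.41% higher, 2.17% lower). Late neutrophil genes (21 of 31) and NADPH oxidase genes (6 of 8) have the longest bars on the higher side among these lists, and eosinophil, basophil and mast cell markers (4 of 15) the longest on the lower side.

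Some of the smallest p-values fell on genes outside most of these programmes, beside genes described above such as Itgb2, Hoxa9, Ceacam1, Abcb1b and Cd93. Abca13, a large lipid transporter of the ABC family, was at 66.2, 54.3, 52.2 and 59.2 CPM in wtGMP and at 645, 956 and 942 CPM in BMTGMP, a rise of 3.87 ± 0.18 (adjusted p = 1.59e-14). Gsn, gelsolin, which severs actin filaments, was at 7.31, 9.84, 6.05 and 6.33 CPM against 184, 164 and 184 CPM, a rise of 4.60 ± 0.27 (adjusted p = 4.95e-12). Baz2b, a bromodomain protein, was at 518, 539, 504 and 482 CPM against 2710, 3250 and 4190 CPM, a rise of 2.73 ± 0.19 (adjusted p = 1.19e-10). These genes varied little within either group. Igf2r, the lysosomal sorting receptor for mannose 6-phosphate and IGF2, was at 2.87, 1.58, 0.896 and 0.317 CPM against 241, 223 and 452 CPM, a rise of 7.57 ± 0.43 (adjusted p = 1.32e-10; 8.39 without wtGMP 1). Ampd3, an AMP deaminase, rose by 5.17 ± 0.42, from at most 3.94 CPM to 81.0 to 102 CPM.

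On the lower side, Iqgap2, a scaffold of Rac and Cdc42 signalling, was at 860, 707, 900 and 808 CPM in wtGMP and at 97.9, 104 and 53.8 CPM in BMTGMP, and fell by 3.26 ± 0.24 (adjusted p = 4.49e-10). Ass1, argininosuccinate synthase, which makes the precursor of arginine, was at 138, 130, 181 and 167 CPM against 18.3, 16.1 and 4.61 CPM, and fell by 3.54 ± 0.38. Elovl6, a fatty acid elongase, was at 48.6, 49.6, 49.1 and 53.2 CPM against 1.02, 1.04 and 3.14 CPM, and fell by 4.92 ± 0.61 (5.54 without BMTGMP 4). Groups did not overlap at any of the 3. Among genes without a count in 1 group, Limch1, an actin-binding protein, reached 10.9, 30.2 and 50.3 CPM in BMTGMP, at least 145-fold above wtGMP, and Slc13a5, a citrate transporter, was at least 98.3-fold higher. Ppic, a cyclophilin, had no count in BMTGMP and was at least 198-fold lower there. Col6a3, a collagen chain, was without a count in wtGMP but at 62.7, 0.648 and 109 CPM in BMTGMP, so its call rested on libraries 1 and 4 and was lost without BMTGMP 1 (adjusted p = 0.064) or without any 1 of the wtGMP libraries (0.073 to 0.091).

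The leukaemia libraries were about as alike as the normal ones, with Spearman correlations across genes of 0.908 to 0.934 within BMTGMP, 0.913 to 0.942 within wtGMP and 0.859 to 0.921 between the groups. These are correlations across genes, which are not independent replicates. Within BMTGMP, library 2 had the highest and library 1 the lowest summed level of late neutrophil genes, while Csf1r, F13a1 and Irf8 were highest in library 1.

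The BMTGMP libraries were set against the mean of LTearly and LTlate to show where they differ from the other MLL-AF9 leukaemias. This contrast called 664 genes (4.57%), 266 higher in BMTGMP (1.83%) and 398 lower (2.74%). It shares the BMTGMP libraries with the comparison above, so the values are given side by side. Mgl2, a galactose-type lectin of macrophages and dendritic cells, was at 0 to 5.16 CPM in the 7 LT libraries, against 182 to 223 CPM in BMTGMP, and higher in BMTGMP by 6.11 ± 0.62 (adjusted p = 0.000157). Nrp2, a neuropilin receptor, was at 10.2 to 47.0 CPM and higher by 3.03 ± 0.35 (adjusted p = 5.03e-05), and Mylk, myosin light chain kinase, at 12.5 to 44.5 CPM and higher by 2.82 ± 0.33 (adjusted p = 8.6e-06). Hoxa9 was at 58.4 to 124 CPM in the LT libraries, and the highest of them lay just under the lowest BMTGMP library (higher by 1.25 ± 0.25, adjusted p = 0.00245). Igf2r was at 56.2 to 117 CPM in LTearly and 18.2 to 20.7 CPM in LTlate, and BMTGMP was higher by 2.94 ± 0.27 (adjusted p = 1.01e-06), a difference of 2.26 with adjusted p = 0.055 where the library with conflicting labels entered as LTlate.

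Mpo, lower in BMTGMP than in wtGMP, was still higher than in the LT leukaemias (247 to 4770 CPM) by 3.10 ± 0.51 (adjusted p = 0.0068). Cybb lay the other way, at 943 to 2280 CPM in the LT libraries, with BMTGMP lower by 2.18 ± 0.20 (adjusted p = 2.43e-07). Olfm4 was also lower in BMTGMP, by 2.21. Against the LT mean, 8 of 31 late neutrophil genes and 3 of 8 oxidase genes were called lower in BMTGMP and 0 higher (2.74% of all genes were lower). S100a9 was at 1870 to 12400 CPM and Itgam at 865 to 1710 CPM in the LT libraries, so high levels of these genes relative to wtGMP were not particular to BMTGMP. Several genes that were low in BMTGMP were higher in each LT library. Cd34 was at 12.8 to 147 CPM there (BMTGMP lower by 3.74 ± 0.51, adjusted p = 0.000826), and Erg at 48.8 to 92.6 CPM (lower by 3.05 ± 0.35, adjusted p = 2.61e-06). Cd93 was at 114 to 362 CPM and lower in BMTGMP by 2.37 ± 0.25 (adjusted p = 1.52e-06), Iqgap2 at 287 to 536 CPM and lower by 2.18 ± 0.22 (adjusted p = 6.37e-07), and Abcb1b at 14.8 to 56.7 CPM and lower by 3.12 ± 0.34 (adjusted p = 1.1e-06). BMTGMP lay below every LT library at these 5 genes.

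**Figure D5:**
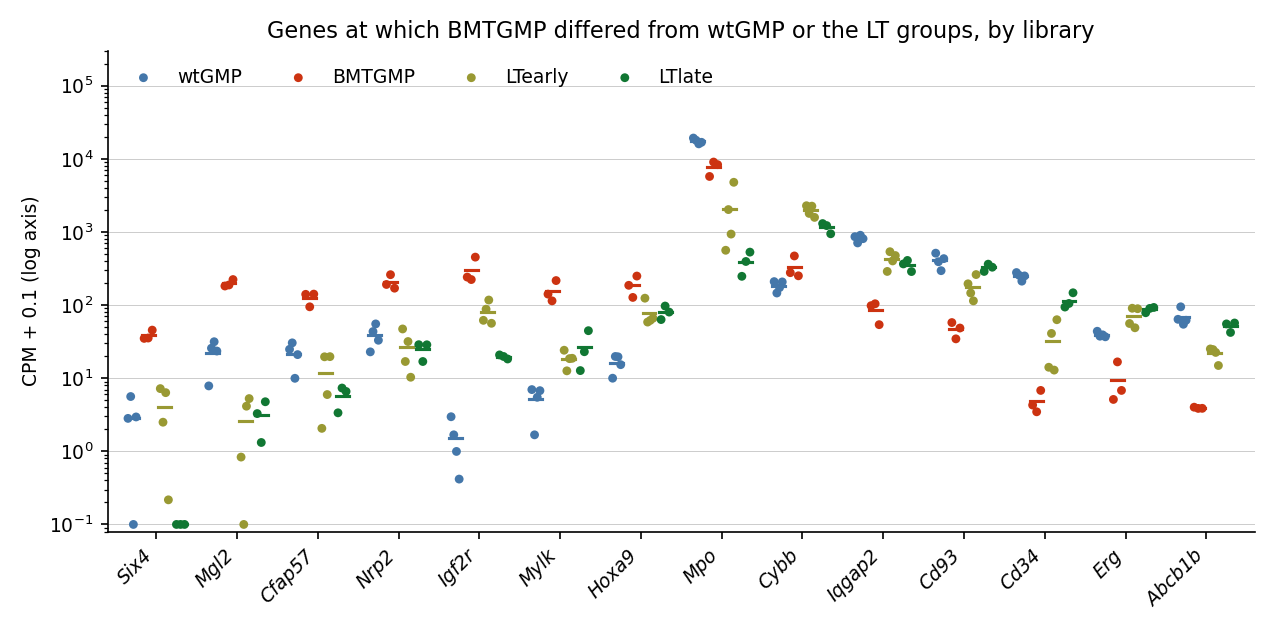
Level of genes that separate BMTGMP from the other MLL-AF9 groups, in each library of wtGMP, BMTGMP, LTearly and LTlate (CPM plus 0.1, log axis), with dots for libraries and bars for the group mean. Mgl2, Nrp2 and Igf2r lie highest in BMTGMP, and Cd34, Erg and Abcb1b lowest.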

How the data were processed

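RNA was sequenced from a low-input kit that keeps strand, per the labels' protocols. The authors deposited 1 table of 28847 RefSeq transcripts with reads on mm9 and up to 100 hits kept per read, per the file headers, and the submitters' processing notes name Bowtie 0.9.9.1. Its unit is an expected count, as deposited by the authors: 13.75% of values are not whole, and no scaling was applied. Transcripts with a symbol numbered 26092, and for each of 20453 genes the transcript of highest mean count was kept (3566 genes had several) and rounded to a whole number. Counts without a symbol (3.51% to 4.16% per library) were left out. The values of 1 further column, whose name fits none of the samples, stayed out, and 1 library with conflicting labels entered only alternatives.

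The 14 grouped libraries entered 1 fit with a mean per group in edgeR 4.0.16 under R 4.3.3 (TMM, filterByExpr, robust quasi-likelihood test, two-sided, Benjamini-Hochberg adjusted p under 0.05; common biological coefficient of variation 0.748). DESeq2 1.42.0 was an alternative. Errors of log2 fold changes are approximate standard errors, taken as the absolute change divided by the square root of the test's F value. For a group with no count, folds are bounds set by 3 counts in that group as a whole. With 1 to 3 counts, an exact binomial 95% interval is given, which covers counting error only. On simulated counts for this comparison (13152 genes), edgeR recovered 12% of 2-fold and 59% of 4-fold changes with 5 false calls, and DESeq2 23% and 71% with 38. Only 100 genes were changed at each fold, all above a minimum mean count. The other genes had the same mean in every group, so recovery in the data may differ.

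Named genes were 22 preset genes, the 12 largest rises and falls with at least 5 CPM and no overlap, up to 5 called members per list and direction, the 2 most abundant markers of other cell types, the 10 smallest p-values per direction and up to 6 genes per direction that differ from the LT groups. Some genes that this rule names are not reported here. Further names were chosen after their values were seen: Six4, Eya1, Ltf, Lcn2, Camp, S100a8, S100a9, Ncf1, Ctsg, Elane, Prtn3 and Mki67. Members and the 36 gene lists were chosen with earlier results of these data known.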

Additional observations from a re-analysis of the deposited data

Results flagged for a closer look

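In 149 named genes, the 4 wtGMP libraries were searched for 1 library far from the other 3, and 10 genes had one. Chance gives about 1 in 20 groups if values are normally distributed, and none of these values was explained. That rate does not hold at Mecom, Ly6a and Jchain. There the other wtGMP libraries were at 0 CPM, so any count in a single library was bound to be flagged. The library that stood apart was wtGMP 2 at Mllt3 (39.8 CPM), Hoxa10 (2.36 CPM) and Zfp704 (219 CPM). It was wtGMP 4 at Mecom (3.8 CPM), Ly6a (0.633 CPM) and Prdx1 (96.3 CPM). It was wtGMP 3 at Jup (7.4 CPM), Ftsj3 (674 CPM) and Jchain (1.34 CPM), and wtGMP 1 at Sirpa (130 CPM). BMTGMP has 3 libraries and was not searched.

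Some genes called against wtGMP were also called between BMTGMP and the mean of LTearly and LTlate, by edgeR's test of that contrast. The rule named at most 6 of them per direction, by smallest p, and 11 are given here. They are a selection, since others such as Erg, Cd34 and Hoxa9 were called in both contrasts. BMTGMP was higher by 2.94 at Igf2r, 1.67 at Tspoap1, 2.82 at Mylk, 3.03 at Nrp2, 3.92 at Cfap57 and 6.11 at Mgl2. The log2 difference was -2.18 at Iqgap2, -3.12 at Abcb1b, -2.37 at Cd93, -2.18 at Cybb and -2.13 at Lsp1.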

How the results depend on the processing

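No called result changed direction under the alternatives run. Among genes not called, Itgb3, Gp1ba and Elane did with 1 library left out, and Mecom did without wtGMP 4 (from -0.65 to 5.05) and with the replicate block (0.52). Against 957 called genes, DESeq2 called 1424, the fit of the 7 libraries alone 1216, and the others 826 (transcripts summed) to 987 (no filter). The count of lower genes rose from 315 to 546 with DESeq2 and to 521 in the fit of the 7 libraries, and the count against the LT mean rose from 664 to 1139 with DESeq2. Leaving out 1 library gave 709 (without BMTGMP 4) to 892 genes, 509 to 589 higher and 167 (without BMTGMP 4) to 303 lower, 345 (without BMTGMP 4) to 860 (without LTearly 4) against the LT mean, and 107 to 140 called list members (134 with all libraries). In the fit of the 7 libraries, an alternative added after seeing the data, it gave 910 to 1175, of which 357 to 515 lower (515 without BMTGMP 1 and 488 without BMTGMP 2). With the replicate number as a block, 858 genes were called, 576 higher and 282 lower. Same-numbered deviations from the group means correlated at 0.056, -0.048 and -0.009, and differently numbered ones at -0.083 to 0.096. With so few libraries, this cannot decide whether the numbers pair the samples. Of the named genes' alternative values against wtGMP, 3700 kept their side of the threshold, 242 lost the call and 44 gained it. In the simulation, which took its spread from these libraries and changed few genes, most 2-fold changes were not called. Recovery in the data themselves was not measured.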
